A study of Homo sapiens with 18 samples.

Results

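The transcripts of the cytosolic ribosomal proteins were followed in SW620 cells, a human colon cancer line, after silencing of Lonp1 and heat shock. Genes were chosen by symbol (RPL or RPS followed by a number, with RPLP0, RPLP1, RPLP2 and RPSA and without the RPS6 kinases), whatever their change, and 115 of the 26485 symbols matched. Of these, 91 had more than 1 CPM (counts per 1e6 counts of the library) in at least 3 of the 18 libraries and were among the 12832 genes tested. They comprised 77 canonical ribosomal protein genes (46 of the large and 31 of the small subunit), 5 paralogs (RPL22L1, RPL26L1, RPL36AL, RPL7L1 and RPS27L), 8 pseudogenes, and RPS19BP1, which matched by its symbol and encodes no ribosomal protein. The other 24 symbols, 19 pseudogenes and 5 paralogs, did not pass. The rule missed 3 ribosomal proteins named otherwise, of which FAU and GNB2L1 (RACK1) are given beside the members.

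The cytosolic ribosome is built from a large and a small subunit, each an rRNA core carrying proteins that are encoded by separate genes, nearly all of them present as a single copy. Their mRNAs are short and abundant, and most begin with a C followed by a run of pyrimidines, the terminal oligopyrimidine (TOP) motif, through which mTORC1 and LARP1 control their translation and stability. In the nucleolus, rRNA made by RNA polymerase I is joined to these proteins by a large set of assembly factors, many of them targets of MYC.

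Cells received a scramble siRNA or an siRNA against Lonp1 (siLonp1). Ctrl cells stayed at 37 °C, HS cells spent 1 h at 42 °C, and HS+REC cells had the same heat shock with 1 h of recovery at 37 °C after it. Each of the 6 groups (Ctrl scramble, Ctrl siLonp1, HS scramble, HS siLonp1, HS+REC scramble and HS+REC siLonp1) had 3 libraries, described in the methods as independent biological replicates of this 1 line. No group lacked siRNA, and the siRNA sequence used for RNAseq is not named. The comparisons ask what heat and recovery do in each arm, what Lonp1 silencing does in each condition, and whether the response to heat differs between arms.

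Libraries held between 30815860 and 47279297 counts. LONP1, the silenced gene, was at 196.4 to 232.9 CPM in the 9 scramble libraries and at 11.5 to 28.8 CPM in the siLonp1 libraries. HSPA1A, the heat-inducible HSP70, rose from between 13.6 and 18.8 CPM in Ctrl to between 1876.5 and 3884.6 CPM after heat. Of 10 colon epithelium markers 9 passed the filter, with a summed level of 8326.4 to 11689.6 CPM, although KRT20 peaked at 1.21 CPM and LGALS4 did not pass. Blood markers summed to 10.9 to 17.6 CPM (nearly all CD68), fibroblast markers to 8.44 to 32.9 CPM (nearly all COL1A1, with COL3A1 at 0 in every library) and endothelial markers to 0.653 to 1.52 CPM. All CPM values are relative to the counts of a library. Those of single genes, other than the cell type markers, were also scaled by a factor per library (TMM). Less RNA per cell and fewer cells of a kind therefore cannot be told apart, nor can a change of all genes at once be seen.

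The start sites of the genes on which the results turn are shown first, because the TOP motif is read at the first transcribed base. A C at the annotated start followed by at least 4 C or T, searched on the coding strand only, stood at the RefSeq start of 42 of 62 canonical genes with an entry (67.7%), against 4.04% of all 27305 promoters of the table. It was found in 25 of 38 large (65.8%) and 17 of 24 small subunit genes (70.8%), and in 1 of 5 paralogs. The other 15 canonical genes had no entry. Each line gives 15 bases before the start and the first 15 transcribed bases, 5′ to 3′ on the gene's strand (RefSeq, GRCh38.p14). Capitals mark the unbroken run of pyrimidines that holds the start base, where the motif was found.
RPS3A: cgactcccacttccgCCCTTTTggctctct
RPS18: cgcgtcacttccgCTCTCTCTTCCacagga
RPL41: cggaacttcgCCTTTCTCTCggccttagcg
RPLP1: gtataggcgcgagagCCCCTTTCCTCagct
RPS12: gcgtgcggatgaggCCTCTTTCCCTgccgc
RPL22L1: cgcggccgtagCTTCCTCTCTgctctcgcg
RPL7L1: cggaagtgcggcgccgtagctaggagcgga
RPL36AL: ctgtttcttccctttcctgttaggcgagag

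These windows lie at chr4:151099613-151099642 (RPS3A, plus strand), chr6:33272060-33272089 (RPS18, plus), chr12:56116618-56116647 (RPL41, plus), chr15:69452803-69452832 (RPLP1, plus), chr6:132814554-132814583 (RPS12, plus), chr3:170870181-170870210 (RPL22L1, minus), chr6:42879601-42879630 (RPL7L1, plus) and chr14:49620612-49620641 (RPL36AL, minus). The first 5 genes are canonical and carry the motif. Of the paralogs shown, RPL22L1 carries it, RPL7L1 has no pyrimidine run at its start, and the pyrimidine run of RPL36AL crosses its annotated start but is too short after it to meet the motif. A match is a description of these letters and was not tested as a site.

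Levels of the canonical genes were compared per kb of coding sequence (GENCODE release 44), as the mean of the 18 libraries. The median was 1738.0 CPM per kb, with 1083.8 at the 10th and 3186.6 at the 90th percentile, and the medians of the large (1715.7) and small subunit genes (1799.3) were close. RPL41, whose coding sequence of 75 bases makes a very small basic protein, stood highest at 11964.9 CPM per kb, a value to which reads from its UTRs also count. RPLP1, a stalk protein that helps recruit elongation factors, followed at 4092.7, then RPL13A at 3860.9. UTR reads count to these values too, as the annotated transcripts of RPL41, RPLP1 and RPL13A are 676, 1174 and 1127 bases. The ranking therefore depends on UTR length and is not one of mRNA abundance.

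RPL17, RPS10 and RPL36A were lowest, at 26.9, 16.3 and 9.7 CPM per kb. Each shares its exons with an annotated read-through gene (RPL17-C18orf32, RPS10-NUDT3 and RPL36A-HNRNPH2), which itself had at most 7 counts in a library. How reads shared by overlapping genes were counted is not given in the sources used here, so the levels of these 3 genes are uncertain. RPL36A had between 44 and 189 counts per library, and its changes below rest on those.

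Together the 91 genes held 6.95% to 8.67% of all counts of a library. The share was 7.75% ± 0.239 (SD, n = 3) in Ctrl scramble and 7.58% ± 0.0404 in Ctrl siLonp1. It was 6.95%, 6.99% and 7.99% in the HS scramble libraries and 8.67%, 7.87% and 7.85% in the HS siLonp1 libraries. The third HS scramble library lay above the lower libraries of HS siLonp1, so these groups overlapped. The HS+REC groups also overlapped, at 7.07% to 7.93% in scramble and 7.31% to 8.16% in siLonp1.

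**Figure D1:**
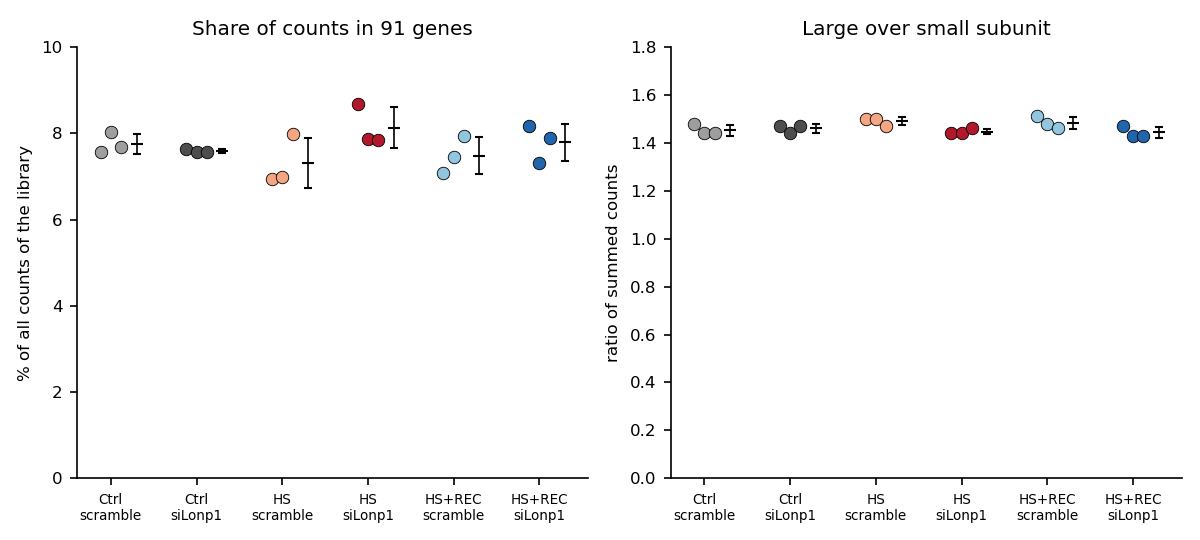
Left, the share of each library's counts in the 91 genes (%), and right, the counts in large subunit genes divided by those in small subunit genes, by group. Circles are libraries and bars the mean ± SD of 3; shares run from 6.95% to 8.67%, while the ratio stays between 1.43 and 1.51.

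The subunits moved together. Large subunit genes had 1.43 to 1.51 times the counts of small subunit genes in every library. The group means of this ratio lay between 1.44 ± 0.0231 (HS+REC siLonp1) and 1.49 ± 0.0173 (HS scramble), a difference of a few percent, although the scramble libraries after heat (1.46 to 1.51) tended to lie above the siLonp1 libraries after heat (1.43 to 1.47).

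The canonical genes also moved as a block from library to library. Each gene's log2 CPM was set against its own mean over the 18 libraries, and the median over the 77 genes was taken in each library. It was -0.18 in both the first and second HS scramble libraries and 0.02 in the third. In HS siLonp1 it was 0.24, 0.08 and 0.06. In the first HS scramble library 2 of the 77 genes were above their own mean, and in the first HS siLonp1 library 73 were. The Ctrl libraries lay between -0.10 and 0.00, and the pooled SD of these medians within groups was 0.0827.

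Other short transcripts moved in the same direction in most of these libraries. The 822 tested genes with a transcript under 1000 bases that are no members had medians of -0.15, -0.13 and 0.04 in HS scramble and 0.14, 0.00 and 0.00 in HS siLonp1. The 3267 genes over 5000 bases were at 0.06, 0.07 and -0.02 in HS scramble and at -0.06, 0.04 and 0.05 in HS siLonp1, of opposite sign to the ribosomal protein genes in the HS scramble libraries and the first HS siLonp1 library and of the same sign in the other two. The part of transcript length, and of whatever sets it in a library, in the changes of the ribosomal protein genes was not tested beyond the fit with length and GC content removed that is given below.

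**Figure D2:**
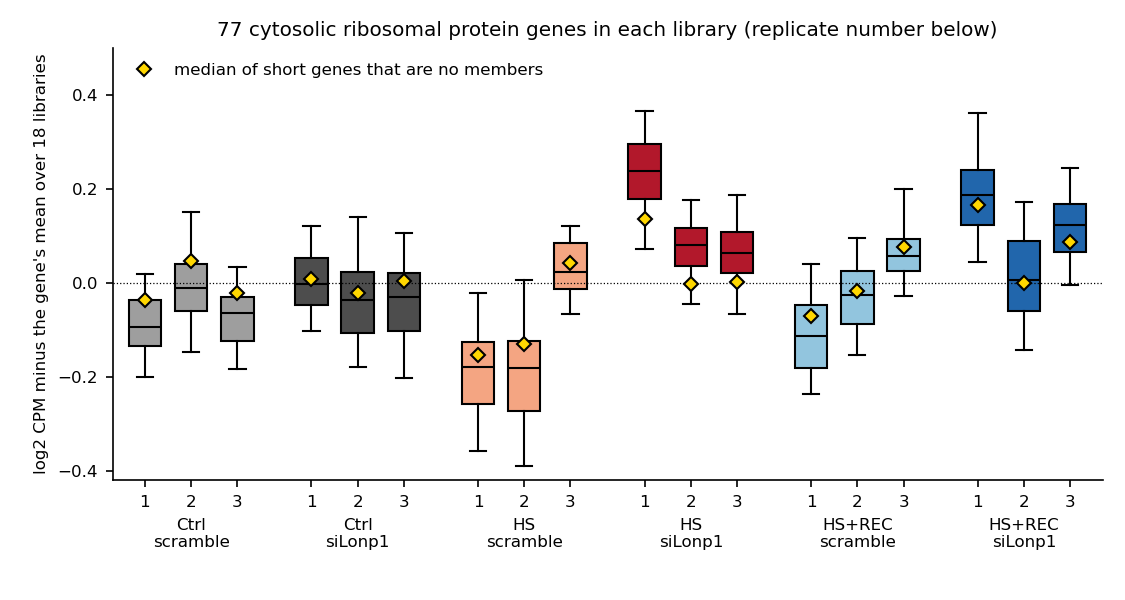
Log2 CPM of the 77 canonical genes minus each gene's mean over the 18 libraries, by library; boxes span the quartiles with the median as a line, and whiskers the 5th to 95th percentile. Diamonds are the medians of 822 short genes that are no members; like the boxes they are lowest in HS scramble replicates 1 and 2, while in HS siLonp1 replicates 2 and 3 they are at 0.00 and the boxes slightly above 0.

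At 37 °C the count of members changed by Lonp1 silencing depended on the fit. A gene was called at an FDR of at most 0.05 (edgeR quasi-likelihood test, Benjamini-Hochberg over all genes tested), whatever its fold. Of the 91 members 4 rose and 7 fell, against 26.3% of all genes raised and 22.9% lowered, and none changed over 2-fold, as 4.17% of all genes did. With library size alone 0 rose and 14 fell, and with length and GC trends removed 22 rose and 11 fell. The median log2 fold change was 0.04, against 0.01 for all genes. Of the 77 canonical genes 2 rose, among them RPL23A, and RPS12 and RPL17 fell, so 73 did not pass the test.

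RPL23A, a large subunit protein near the exit tunnel, was at 457.7, 464.8 and 443.9 CPM in Ctrl scramble and at 559.3, 494.4 and 507.1 CPM in Ctrl siLonp1. Every siLonp1 library was above every scramble library, with a log2 fold change of 0.19 (SE 0.068, FDR 0.0223) whose call 3 alternatives ended, among them library size scaling (0.12, FDR 0.135). RPS12 was at 847.4, 833.3 and 876.2 CPM in Ctrl scramble and at 791.7, 716.5 and 756.3 CPM in Ctrl siLonp1, a log2 fold change of -0.17 (FDR 0.0335) that missed the threshold with any of 4 libraries left out, up to an FDR of 0.142.

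In heat-shocked cells most ribosomal protein genes were higher with siLonp1 than with scramble. Of the 91 members 60 rose and 3 fell, against 28.1% raised and 26.7% lowered among all genes. Those raised include the pseudogenes RPL13AP20 and RPS18P9, which exceeded 1 CPM in 13 and 6 of the 18 libraries. They passed the filter through libraries in which they are high, so their rise supports nothing. The median log2 fold change was 0.23, against 0.00 for all genes, and 81 of 91 were above 0. No member changed over 2-fold, as 4.17% of all genes did in either direction. Of the large subunit genes 33 of 46 rose (median 0.26) and of the small subunit genes 22 of 31 (median 0.27), and no canonical gene fell.

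The canonical gene with the largest change was RPS3A, a small subunit protein. It was at 867.6, 815.0 and 1316.0 CPM in HS scramble and at 1753.9, 1542.1 and 1525.2 CPM in HS siLonp1. The groups did not overlap, although the third scramble library lay close to the Ctrl level of 1366.7 ± 167.0 CPM. The log2 fold change was 0.69 (SE 0.136, FDR 0.000193).

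RPS18, a small subunit protein that was the reference gene of the qRT-PCR, was at 1027.4, 1047.5 and 1438.6 CPM in HS scramble and at 1863.3, 1614.3 and 1575.5 CPM in HS siLonp1. Its groups did not overlap either, with a log2 fold change of 0.52 (SE 0.111, FDR 0.00038). RPL41 was at 706.9, 675.0 and 854.6 CPM in HS scramble and 1149.6, 998.0 and 1034.7 CPM in HS siLonp1. Again no siLonp1 library was as low as any scramble library, and the difference was 0.51 (SE 0.09, FDR 5.21e-05).

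RPL5 and RPL11, which carry the 5S rRNA into the large subunit and can bind MDM2, rose by 0.25 (FDR 0.00201) and 0.32 (FDR 0.00356). Of the stalk, RPLP0 rose by 0.30 (FDR 0.00238) and RPLP1 by 0.28 (FDR 0.0104, lost with library size scaling, without HS scramble replicate 1 or without HS siLonp1 replicate 1), whereas RPLP2 was at 721.2 ± 31.5 CPM in HS scramble and 793.8 ± 38.5 in HS siLonp1 and did not pass (FDR 0.0733). RPS19, needed to mature the small subunit rRNA, rose by 0.30 (FDR 0.0036). RPS12 was among the canonical genes that did not pass, at a log2 fold change of 0.02. Of the ribosomal proteins outside the rule, GNB2L1 rose (0.23, FDR 0.00384), a call lost with library size scaling. FAU was called at 0.21 (FDR 0.0295), but 5 alternatives ended its call, and its value was 0.11 with library size scaling and 0.03 with length and GC trends removed.

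This count depended on scaling and on a correction for length and GC content together. With library size alone, which moved the median of all genes to -0.10, 34 members rose and 7 fell, and with the trend of each library with transcript length and GC content removed 41 rose and 13 fell, at a median of 0.12. The latter correction rests on the annotated lengths, which are long for some members, as given above. The number raised lay from 41 to 64 when any library was left out.

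**Figure D3:**
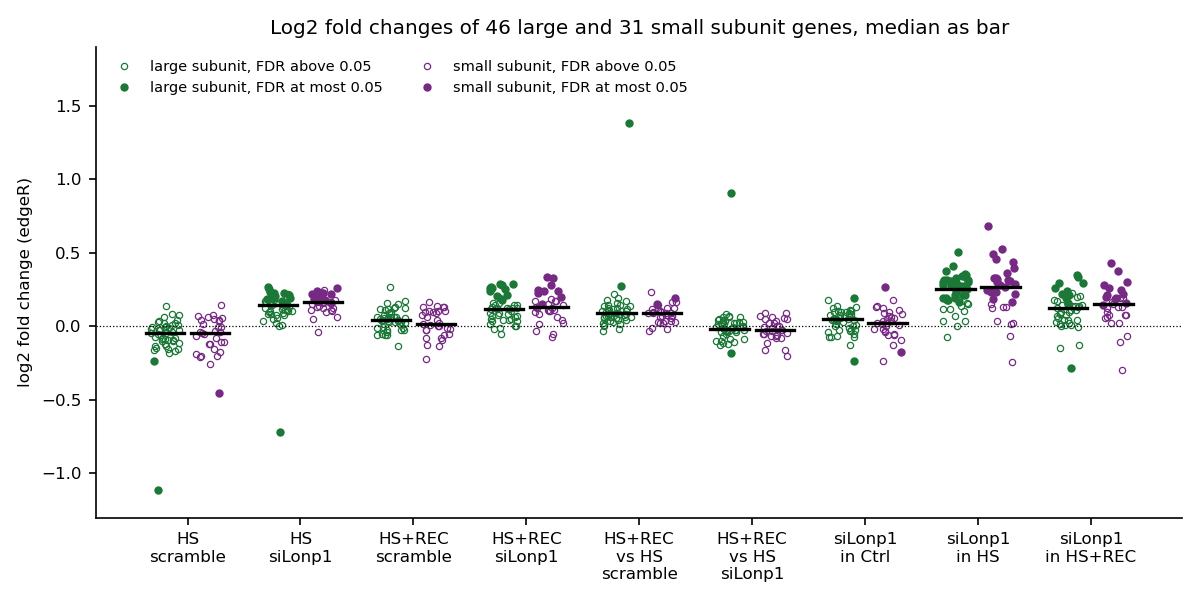
Log2 fold changes (edgeR) of the 46 large subunit (green) and 31 small subunit (purple) canonical genes in 9 comparisons; filled points have an FDR of at most 0.05 and black bars are medians. The medians of both subunits are near 0.26 for siLonp1 in HS and near 0 for siLonp1 in Ctrl, and the point far from the others after heat is RPL36A.

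The arms were also compared after recovery, and whether their difference changed from HS to HS+REC was not tested. Of the 91 members 27 rose and 6 fell with siLonp1, against 26.8% and 27.3% of all genes, with a median of 0.12 and none over 2-fold (4.18% of all genes). The raised share of the members was thus near that of all genes, while the lowered share was below it. Of large subunit genes 11 of 46 rose and of small subunit genes 13 of 31. With library size alone 11 rose and 10 fell, and with length and GC removed 16 fell. Without HS+REC scramble replicate 1 only 10 members rose, and without HS+REC siLonp1 replicate 1 only 11 rose and 10 fell.

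RPS3A was at 929.7, 1285.0 and 1308.1 CPM in HS+REC scramble and at 1484.3, 1691.7 and 1573.9 CPM in HS+REC siLonp1. The arms did not overlap, with a log2 fold change of 0.43 (FDR 0.0101), and without the low first scramble library it was 0.29 (FDR 0.0785). RPL23A was at 429.7, 431.5 and 481.8 CPM in scramble and 613.0, 517.9 and 562.6 CPM in siLonp1, with no overlap and a log2 fold change of 0.34 (SE 0.068, FDR 0.000244). RPL23A thus rose with siLonp1 in Ctrl, HS (0.38, FDR 6.04e-05) and HS+REC.

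In scramble cells heat shock changed a smaller share of the members than of all genes. Of the 91 members 1 rose and 5 fell, against 18.6% raised and 17.3% lowered among all genes, and 2 changed over 2-fold, as 3.3% of all genes did. The median was -0.04 (all genes -0.01), with -0.04 in large and -0.05 in small subunit genes. The member that rose was the pseudogene RPL13AP20, which passed the filter only through the groups in which it is high, so its rise with HS and HS+REC, counted in each of these comparisons, supports nothing. The members that fell were RPL36A, RPL7L1, RPS3A, RPL36AL and RPL24, and RPS14 (log2 fold change -0.20) lay at the threshold.

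RPS3A fell by 0.45 on the log2 scale (SE 0.136, FDR 0.0114), from 1199.9, 1534.0 and 1366.2 CPM to the HS scramble values given above, and the third HS scramble library lay within the Ctrl range. Its call was lost without HS scramble replicate 1 or 2 or Ctrl scramble replicate 2. RPL24 fell by 0.23 (FDR 0.0258), a call that 5 alternatives ended. The count turned on HS scramble replicate 3, and without it 20 members fell. It also moved with library size scaling (14 lowered) and with length and GC removed (19 raised and 9 lowered).

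In siLonp1 cells heat shock raised members. Of 91, 28 rose and 2 fell, against 20.2% raised and 22.1% lowered among all genes, with 1 over 2-fold (4.57% of all genes), RPL13AP20, and a median of 0.15 (all genes 0.00). With library size alone 10 rose. Large and small subunit genes rose in 13 cases each, of 46 and of 31, with medians of 0.15 and 0.17.

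RPLP1 was at 1373.0, 1316.5 and 1279.5 CPM in Ctrl siLonp1 and at 1756.4, 1493.7 and 1536.1 CPM in HS siLonp1. The groups did not overlap, and the log2 fold change was 0.27 (SE 0.089, FDR 0.0171). RPS12 rose by 0.26 (FDR 0.00269) from 791.7, 716.5 and 756.3 CPM to 990.1, 893.9 and 830.8 CPM, again with no overlap, and RPL41 by 0.26 (FDR 0.0246). The call of RPLP1 was lost without HS siLonp1 replicate 1 or Ctrl siLonp1 replicate 3, and that of RPL41 under 4 alternatives. Without HS siLonp1 replicate 1 only 5 members rose, and without Ctrl siLonp1 replicate 2 or 3 the count was 14 or 10. The fit of only the groups compared went the other way, with more members raised than in the main fit, as counted in the closing section.

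The question whether heat acted differently in the arms was tested as an interaction, and no member passed in the main edgeR fit (filtered genes, all 18 libraries, TMM scaling). For HS 0 members were called in either direction (0.475% of all genes were raised and 1.39% lowered), although 83 of 91 values were above 0, the median was 0.19 (all genes 0.00) and 33 members had an unadjusted p under 0.05, against 15.2% of all genes. DESeq2 called 3 members, and edgeR with no filter on low counts called 7. The lowest p was that of RPL41, with an interaction of 0.42 (SE 0.127, FDR 0.0873). Large and small subunit genes had medians of 0.19 and 0.22.

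Without HS scramble replicate 3 the interaction with HS was called in 15 members, and with length and GC removed its median was 0.06. Interaction calls among members also appeared with length and GC removed and with only the groups compared, as counted in the closing section. For HS+REC 0 members were called in either direction (0.686% of all genes raised and 0.896% lowered), with a median of 0.08 and 5 members at an unadjusted p under 0.05, against 13.6% of all genes. In the main edgeR fit the siLonp1 effects in HS and in Ctrl are therefore not shown to differ for any single member.

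Recovered cells were set against Ctrl. In scramble cells 3 members rose, all of them pseudogenes, and 1 fell, RPL7L1, against 21.8% and 20.5% of all genes, with 1 over 2-fold (4.46% of all genes), RPL13AP20, and a median of 0.04. The calls of the other pseudogenes, RPL23AP82 and RPL23AP53, were ended by 8 and 3 alternatives. No canonical gene was called, but with length and GC removed 24 members rose, and with library size alone 6 fell. In siLonp1 cells 24 rose and 2 fell, against 24.6% and 26.6% of all genes, with 1 over 2-fold (5.71%) and a median of 0.12.

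Of the canonical genes in siLonp1 cells, RPS12 reached 992.9, 904.8 and 960.0 CPM in HS+REC against at most 791.7 CPM in Ctrl, a log2 fold change of 0.34 (SE 0.067, FDR 0.00019). RPS25, a small subunit protein used by some viral internal ribosome entry sites, went from 588.1, 558.0 and 567.1 CPM to 786.4, 664.2 and 704.3 CPM, a log2 fold change of 0.33 (SE 0.065, FDR 0.000154). All recovered libraries were above all Ctrl libraries for both genes. RPL11 rose by 0.28 (FDR 0.00986), a call lost with library size scaling or without HS+REC siLonp1 replicate 1, and that of RPLP1 was lost without the same library. Without that library 14 members rose, and with library size alone 11 did.

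Recovered cells were also set against heat-shocked cells. In scramble cells 7 rose and 0 fell, against 14.2% raised and 12.7% lowered among all genes, with 1 over 2-fold (1.9%). Their median was 0.09, and 18 members had an unadjusted p under 0.05, of either sign, against 36.7% of all genes. The count rose to 27 without HS scramble replicate 3 and was 3 with library size alone. In siLonp1 cells 3 rose and 2 fell, against 16.3% and 15.6%, with 0 over 2-fold (2.57%) and a median of -0.01, but with length and GC removed 13 fell. RPL13A, a large subunit protein, was the canonical gene that fell, by 0.18 (FDR 0.044), and 5 alternatives ended its call.

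By group mean, HS siLonp1 was the highest group for 43 of the 77 canonical genes and HS+REC siLonp1 for 27. HS scramble was the lowest group for 50, Ctrl scramble for 15 and Ctrl siLonp1 for 11. These counts are a description, since the genes share the libraries and neighbouring group means often overlapped in their libraries.

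The 5 paralogs varied among themselves. RPL22L1, the paralog of RPL22 with a role in RNA splicing, was at 15.3, 16.2 and 16.9 CPM in Ctrl scramble and at 9.91, 10.2 and 10.9 CPM in Ctrl siLonp1. It was at 17.6, 15.1 and 18.1 against 10.1, 10.1 and 9.99 CPM in HS, and at 14.1, 15.1 and 15.1 against 6.75, 7.77 and 8.84 CPM in HS+REC. In no condition did the arms overlap.

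RPL22L1 fell with siLonp1 by 0.64 (SE 0.088, FDR 2.73e-06) in Ctrl, by 0.75 (SE 0.089, FDR 3.1e-07) in HS and by 0.92 (SE 0.091, FDR 1.61e-08) in HS+REC on the log2 scale. In siLonp1 cells it also fell from Ctrl to HS+REC, by 0.41 (FDR 0.000728). The interactions were not called (FDR 0.761 with HS and 0.324 with HS+REC). RPL22 itself rose with siLonp1 in HS (0.22, FDR 0.00222) and HS+REC (0.16, FDR 0.018), the former call lost with library size scaling and the latter under 4 alternatives, and RPL22L1 carries the TOP motif at its start like most canonical genes.

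RPL7L1, a nucleolar relative of RPL7 that takes part in large subunit assembly, fell with heat in both arms. It was at 160.2, 152.7 and 157.4 CPM in Ctrl scramble, against 105.5, 106.5 and 107.3 CPM in HS scramble. In siLonp1 cells it went from 140.4, 135.7 and 141.8 to 98.8, 90.6 and 96.5 CPM. The groups were far apart, with log2 fold changes of -0.56 (SE 0.059, FDR 5.88e-08) and -0.55 (SE 0.059, FDR 5.85e-08).

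RPL7L1 remained lower in HS+REC, by 0.47 in scramble and 0.51 in siLonp1 on the log2 scale. Silencing lowered it by 0.17 (FDR 0.0186), 0.16 (FDR 0.0255) and 0.20 (FDR 0.00527) in Ctrl, HS and HS+REC, of which 4 alternatives ended the call in Ctrl and 3 that in HS. Its start holds no pyrimidine run.

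RPL36AL, which encodes a protein almost identical to RPL36A, was at 132.6, 129.2 and 159.1 CPM in HS scramble against 163.4, 165.9 and 165.9 CPM in Ctrl scramble, with no overlap and a log2 fold change of -0.23 (FDR 0.0194) whose call was lost without any of 4 libraries. It rose with siLonp1 in Ctrl (0.20, FDR 0.037), HS (0.36, FDR 0.000477) and HS+REC (0.21, FDR 0.022), but 6 alternatives ended the call in Ctrl and 4 that in HS+REC, where the value was 0.08 (FDR 0.114) with length and GC trends removed. RPL36A fell from 3.55, 3.3 and 3.67 CPM in Ctrl scramble to 1.73, 1.68 and 1.39 CPM in HS scramble, then stood at 4.09, 4.67 and 3.9 CPM in HS+REC scramble.

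The log2 fold changes of RPL36A were -1.11 (SE 0.154, FDR 3.75e-06) with HS and 1.38 (SE 0.151, FDR 2.01e-07) from HS to HS+REC in scramble, and -0.72 (FDR 0.000442) and 0.91 (FDR 3.94e-05) in siLonp1. They rest on the reads left to RPL36A beside its read-through gene and may not describe the mRNA as a whole. RPL26L1 rose with siLonp1 in HS by 0.17 (FDR 0.0409), a call that 8 alternatives ended, and RPS27L was called in no comparison.

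**Figure D4:**
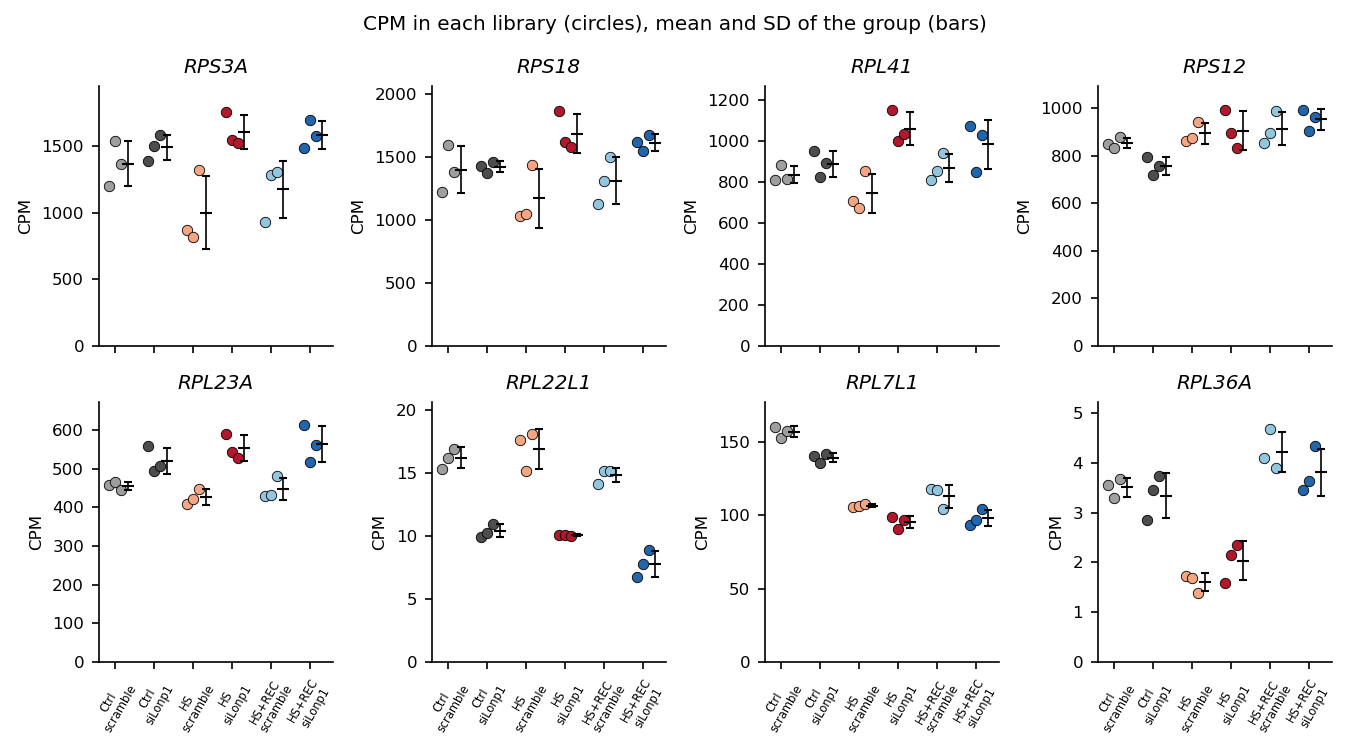
CPM of 8 genes in each library (circles, 3 per group), with the mean ± SD of the group as a bar; every axis starts at 0. RPS3A, RPS18 and RPL41 are low in 2 of the 3 HS scramble libraries and high in HS siLonp1, RPL22L1 is lower in every siLonp1 library, RPL7L1 is lower after heat in both arms, and RPL36A falls in HS and returns in HS+REC.

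Pseudogenes were low and hold near copies of the parent mRNA, so reads may be shared with it and their values are uncertain. RPL13AP20 and RPS18P9 passed the filter through libraries in which they are high, so no call of theirs in any comparison is used as support. RPL13AP20 was at 0.462, 0.652 and 0.648 CPM in Ctrl scramble, against 1.72, 1.9 and 1.98 CPM in HS+REC scramble. RPL23AP53 was at 11.1 ± 0.663 CPM (SD, n = 3) in Ctrl scramble, 13.1 ± 0.0211 in Ctrl siLonp1, 10.3 ± 0.813 in HS scramble, 12.7 ± 0.737 in HS siLonp1, 13.1 ± 0.369 in HS+REC scramble and 18.7 ± 1.86 in HS+REC siLonp1. RPL13P5 fell with siLonp1 by 0.57, 0.63 and 0.60 in Ctrl, HS and HS+REC on the log2 scale. RPS19BP1, which binds RPS19 and regulates SIRT1, fell with siLonp1 in Ctrl by 0.26 (FDR 0.0231), a call lost without Ctrl scramble replicate 2 or Ctrl siLonp1 replicate 2, and did not pass in HS (FDR 0.0667) or HS+REC (FDR 0.0637).

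Of 46 ribosome assembly factors tested, HS raised 4 and lowered 20 in scramble (median -0.14), against 18.6% and 17.3% of all genes. In siLonp1 it raised 2 and lowered 30 (median -0.29), against 20.2% and 22.1%. GRWD1, a large subunit assembly factor, was at 121.7, 125.2 and 115.6 CPM in Ctrl scramble, against 91.6, 93.8 and 90.3 CPM in HS scramble, with no overlap and a log2 fold change of -0.39 (FDR 0.000392), and it fell by 0.73 (FDR 7.65e-08) in siLonp1. LTV1, a small subunit assembly factor, fell by 0.32 and 0.68 on the log2 scale. PPAN, at a low level of 6.54 ± 0.844 CPM in Ctrl scramble and 6.1 ± 0.116 CPM in Ctrl siLonp1, fell by 0.52 and 0.82. RIOK2, a kinase of late small subunit maturation, went the other way, at 0.64 and 0.85.

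With siLonp1 in HS 8 assembly factors rose and 21 fell (median -0.10), against 28.1% and 26.7% of all genes. In HS+REC 4 rose and 23 fell (median -0.15), against 26.8% and 27.3%, and in Ctrl 10 rose and 7 fell (median 0.05), against 26.3% and 22.9%. The difference between this list and the ribosomal proteins was not tested. BOP1, of the large subunit processing complex, fell by 0.60 (FDR 1.34e-06) in HS, and NOP14 by 0.44 (FDR 1.46e-07). In HS+REC against Ctrl 5 rose and 13 fell in scramble (21.8% and 20.5% of all genes) and 5 rose and 30 fell in siLonp1 (24.6% and 26.6%).

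Of 37 translation factors, several of which also have TOP mRNAs, 15 rose and 5 fell with siLonp1 in HS, against 28.1% raised and 26.7% lowered among all genes. In Ctrl 15 rose and 2 fell (26.3% and 22.9% of all genes), and in HS+REC 14 rose and 7 fell (26.8% and 27.3%). EEF1A1, the main elongation factor that brings tRNA to the ribosome, was at 8488.3, 8107.1 and 9643.3 CPM in HS scramble and 13314.6, 12210.4 and 12397.9 CPM in HS siLonp1, with no overlap and a log2 fold change of 0.53 (FDR 3.06e-07). EEF1B2 (0.52) and EIF3F (0.53) rose by a like amount. With HS 4 rose and 8 fell in scramble (18.6% and 17.3% of all genes) and 5 rose and 10 fell in siLonp1 (20.2% and 22.1%), and EIF4A2, a helicase of initiation, rose by 0.81 and 0.95.

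RNA polymerase I genes and regulators were smaller lists. Of 15 RNA polymerase I genes 5 fell with HS in scramble and 6 in siLonp1, among them CD3EAP, a polymerase subunit now named POLR1G (-0.76 and -0.91), and UBTF, the activator of rRNA genes (-0.70 and -0.80), while 2 and 3 rose. HS raised 18.6% and lowered 17.3% of all genes in scramble and 20.2% and 22.1% in siLonp1. Of 12 regulators 5 fell with HS in each arm, and 2 rose in scramble and 1 in siLonp1. RPTOR, the mTORC1 subunit that binds substrates, went from 84.7, 84.3 and 84.4 CPM in Ctrl scramble to 43.7, 43.1 and 35.8 CPM in HS scramble, with no overlap and a log2 fold change of -1.04 (FDR 4.02e-08), and fell by 1.19 in siLonp1. With siLonp1 7 regulators rose and 2 fell in Ctrl (26.3% and 22.9% of all genes), 4 rose and 1 fell in HS (28.1% and 26.7%), and 4 rose and 3 fell in HS+REC (26.8% and 27.3%). MTOR fell with siLonp1 by 0.43, 0.53 and 0.53 in Ctrl, HS and HS+REC. RPTOR rose in Ctrl by 0.32 (FDR 0.0147, lost under 2 alternatives), with values of 0.17 in HS and 0.21 in HS+REC that did not pass, and LARP1 passed in none of these.

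**Figure D5:**
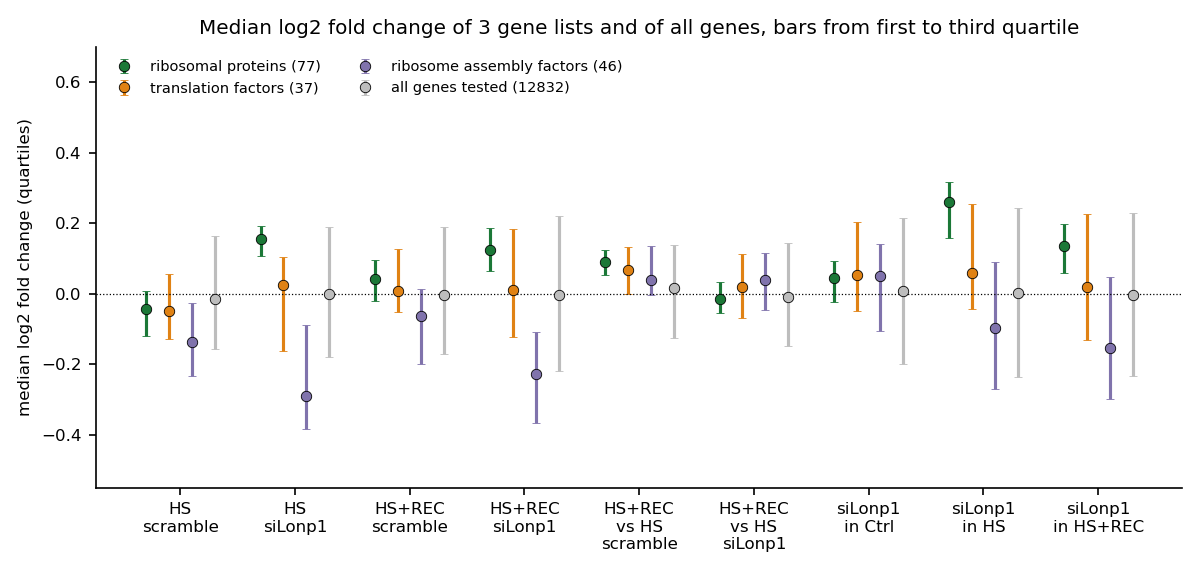
Median log2 fold change (edgeR) of 77 canonical ribosomal protein genes, 37 translation factors, 46 ribosome assembly factors and all 12832 genes in 9 comparisons, with bars from the first to the third quartile of the genes. For siLonp1 in HS the ribosomal proteins are at 0.26 and the assembly factors at -0.10, and for HS in siLonp1 they are at 0.15 and -0.29.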

How the data were processed

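Per the labels and the methods, the authors made stranded mRNA libraries, sequenced paired ends, aligned reads to hg38 with STAR 2.7.3a and counted them on UCSC genes with featureCounts. The deposited values are raw counts per gene symbol with no normalization. The strand setting, the treatment of reads shared by genes and the annotation release are not given in the sources used here. Library totals ran from 30815860 to 47279297 counts, so counting error is larger for the genes near 1 CPM than for the others.

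The 12832 genes that exceeded 1 CPM in 3 or more libraries entered a single edgeR 4.0.16 model (R 4.3.3) of the 18 libraries, with TMM scaling, a mean per group and quasi-likelihood tests. A call needed an FDR (Benjamini-Hochberg, over these genes) no higher than 0.05, at any fold change. Fold changes used a prior count of 0.125, and log2 CPM a prior count of 2. The common biological coefficient of variation was 0.0658. CPM values are TMM scaled, whereas shares of counts and marker levels are not. Lengths came from GENCODE release 44 (98.2% of the genes tested, 91 of 91 members) and start sites from RefSeq (GRCh38.p14). Transcript length and GC content are those of the Ensembl canonical transcript of each gene, whether or not it is the main form in these cells.

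The alternatives were RLE factors, library size only, no filter, CPM above 1 in all 18 libraries, the replicate number as a block, only the groups compared, DESeq2 1.42.0, each library left out, and a removal of length and GC trends that was added after the data were seen. The fits were tested on simulated counts in which genes varied independently, which cannot show how often genes that move together are called falsely. Genes were named by rule: members that are no canonical gene, RPS18, RPL5, RPL11, RPS19, the stalk proteins, the 3 ribosomal proteins the rule misses, the 3 highest and lowest per coding length, and the 3 largest called changes of each comparison and list. RPL23A, RPL24, RPS14, RPL22, RPS25, NOP14 and MTOR in Ctrl, and other values of genes named elsewhere, were given for comparison after their values were seen. The values of some genes that meet the rule are not reported here. The members and lists were chosen with earlier results of these data known. Chi-square per degree of freedom between replicates of a group was 3.48 to 25.8, so no library was taken for a copy of another.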

Additional observations from a re-analysis of the deposited data

Results flagged for a closer look

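No ribosomal protein gene passed the interaction test of heat and siRNA arm in the main edgeR fit, although some did in other fits, as counted below. Among the assembly factors, LTV1 did with HS (interaction -0.35, edgeR FDR 0.0292): it fell from 105.0, 100.5 and 100.6 CPM to 82.5, 79.9 and 82.3 CPM in scramble and from 107.8, 113.4 and 116.4 CPM to 71.5, 69.5 and 70.3 CPM in siLonp1. The call was lost in 9 of 12 fits that left out a library of these groups. With HS+REC the interaction was -0.33 for NOP14 (FDR 0.0141), -0.34 for UTP14A (FDR 0.0142) and -0.65 for MYC (FDR 0.0147). The call of NOP14 was lost without Ctrl siLonp1 replicate 2 or HS+REC scramble replicate 1, that of UTP14A without HS+REC scramble replicate 1 and that of MYC without Ctrl scramble replicate 3. NOP14 and UTP14A, both of the small subunit processome, had log2 fold changes of -0.05 and 0.02 in scramble and fell by 0.38 and 0.32 in siLonp1. MYC, a transcription factor that drives ribosome genes, rose in scramble from 671.3, 613.1 and 597.4 CPM to 1331.8, 991.3 and 1005.8 CPM and was at 804.3, 825.1 and 756.9 CPM and then 823.3, 815.5 and 1047.4 CPM in siLonp1. LONP1, the silenced gene, had interactions of -0.76 with HS and 0.43 with HS+REC, since its remaining level in siLonp1 cells was 20.4 ± 1.75 CPM in Ctrl, 11.7 ± 0.153 CPM in HS and 27.2 ± 1.64 CPM in HS+REC (SD, n = 3), and 11 alternatives ended the call with HS+REC.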

How the results depend on the processing

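Counts below are of the 91 members. With library size only, HS lowered 14 in scramble and raised 10 in siLonp1, HS+REC raised 1 and lowered 6 in scramble (median -0.042) and raised 11 in siLonp1, HS+REC against HS raised 3 and lowered 1 in scramble and lowered 4 in siLonp1, and siLonp1 raised 0 and lowered 14 in Ctrl, raised 34 and lowered 7 in HS (median 0.14) and raised 11 and lowered 10 in HS+REC. With length and GC trends removed, HS raised 19 and lowered 9 in scramble, HS+REC raised 24 and lowered 2 in scramble and lowered 6 in siLonp1, HS+REC against HS lowered 2 in scramble and 13 in siLonp1, siLonp1 raised 22 and lowered 11 in Ctrl, lowered 13 in HS (median 0.12) and lowered 16 in HS+REC (median 0.027), and the interactions had 3 raised and medians of 0.063 (HS) and -0.022 (HS+REC). With no filter on low counts, HS lowered 11 and HS+REC lowered 2 in scramble, HS+REC against HS lowered 5 in siLonp1, siLonp1 raised 8 in Ctrl and the interaction with HS raised 7. With only the groups compared, HS raised 2 in scramble and 50 in siLonp1, HS+REC raised 6 and HS+REC against HS raised 3 in scramble, the latter lowered 1 in siLonp1, siLonp1 raised 11 and lowered 11 in Ctrl and lowered 5 in HS, and the interaction with HS raised 2. DESeq2 gave 8 lowered for HS in scramble and 3 raised for the interaction with HS, and CPM above 1 in all libraries gave 0 raised for HS in scramble. The cause of these shifts was not tested.

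Leaving out each library gave ranges of 2 to 20 lowered for HS in scramble, 5 to 28 raised for HS in siLonp1, 1 to 4 raised for HS+REC in scramble and 14 to 35 raised in siLonp1. For HS+REC against HS they were 3 to 27 raised and 0 to 1 lowered in scramble and 1 to 4 lowered in siLonp1. For siLonp1 they were 2 to 4 raised and 4 to 6 lowered in Ctrl, 10 to 38 raised and 4 to 10 lowered in HS+REC, and 0 to 15 raised for the interaction with HS. The siLonp1 effect in HS stayed between 41 and 64 raised. Of 3624 values of 257 results of named genes under the alternatives, 3343 kept their direction and side of the threshold, 281 lost the call and 0 changed sign. This tally follows calls of the main fit, so it shows calls lost and not the calls gained that the counts above include.

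Same-numbered libraries did not pair: of 45 pairs, 17 had a correlation of deviations above 0.1, with a median of -0.22. With the replicate number as a block, 59 members rose and 3 fell with siLonp1 in HS, 22 rose with HS in siLonp1 and 23 with siLonp1 in HS+REC, and no count of calls moved by over 1.5 times. Depth limits RPL36A, RPS10 and the pseudogenes near 1 CPM.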
